A study of Mus musculus with 2 samples.

Results

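Interferon-high phagocytes are the mononuclear phagocytes of a mouse fibrosarcoma with the most transcripts of Ifit1, Ifit2, Ifit3, Rsad2 and Cmpk2, 5 genes switched on by type I interferon. The tumors were syngeneic fibrosarcomas implanted subcutaneously in C57BL/6 mice of wild-type genotype, digested with collagenase b and DNase I, and passed over a magnetic column. The iron-negative flowthrough (labelled Magnetic Column Flowthrough) and the iron-positive eluate (labelled Magnetic Column Enriched) were each sequenced as 1 droplet library of single cells, so each fraction is 1 sample. The ages and number of mice, and the fibrosarcoma line, are not given in the sources used here. Whether mice were pooled is likewise not given, and with 1 library each, fraction and library cannot be told apart. A phagocyte was a barcode with at least 3000 UMIs (unique molecular identifiers, 1 for each captured RNA molecule), a mitochondrial share of at most 15%, and at least 3 of the phagocyte genes Csf1r, Cd68, Ctss and Fcgr3. It also had at most 1 UMI of the endothelial gene Cdh5, at most 2 of the pericyte gene Rgs5 and at most 3 of the collagen gene Col1a1. Of 23792 barcodes in the series, 15319 passed, 8279 of the flowthrough and 7040 of the eluate. The interferon score was the summed UMIs of the 5 genes per 10000 UMIs, and the highest 5% over both libraries pooled were taken, 766 cells in all, 319 from the flowthrough and 447 from the eluate.

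Type I interferons are secreted proteins that bind a receptor made of IFNAR1 and IFNAR2. The receptor's kinases JAK1 and TYK2 activate transcription factors, among them STAT2 and IRF9, that bind a short DNA element in the promoters of interferon-stimulated genes. The products of these genes block viral replication, sense foreign nucleic acid, tag proteins with ISG15, recruit T cells and, through USP18 and SOCS1, shut the receptor down again. In tumors, macrophages and monocytes are among the cells known to carry this response.

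The 5 genes lie at 2 loci of the mm10 assembly. Ifit1 (ENSMUSG00000034459, chr19:34640871-34650009), Ifit2 (ENSMUSG00000045932, chr19:34550694-34576419) and Ifit3 (ENSMUSG00000074896, chr19:34583531-34588731), whose proteins bind viral RNA, lie near each other on the plus strand. Their relative Ifit3b starts between Ifit3 and Ifit1. Rsad2 (ENSMUSG00000020641, chr12:26442746-26456452, minus strand), which encodes the antiviral enzyme viperin, and Cmpk2 (ENSMUSG00000020638, chr12:26469204-26479837, plus strand), a mitochondrial nucleotide kinase, are neighbours that point away from each other. The core of the interferon-stimulated response element, GAAA followed by any 2 bases and GAAA again, was searched on both strands of the RefSeq promoter windows (GRCm38.p6, 250 bases before to 50 after each start), and overlapping matches were counted apart. It occurred in 3.44% of all 32851 windows, in 3 of the 5 score genes, and 3 times in the window of Isg15, an antiviral gene outside the score. The stretches from 160 to 21 bases before the start are shown for these 4 genes, 5′ to 3′ on the gene's strand, because they hold every match in the 4 windows; capitals mark the matches, which read TTTC, 2 bases, TTTC where they lie on the opposite strand.
Ifit1, chr19:34640729-34640868, plus strand: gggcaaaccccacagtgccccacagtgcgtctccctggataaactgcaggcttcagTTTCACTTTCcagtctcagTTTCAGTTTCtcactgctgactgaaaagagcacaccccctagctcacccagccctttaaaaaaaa
Ifit3, chr19:34583369-34583508, plus strand: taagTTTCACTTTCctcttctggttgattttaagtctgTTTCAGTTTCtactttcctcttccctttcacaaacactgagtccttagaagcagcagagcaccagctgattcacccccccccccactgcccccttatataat
Rsad2, chr12:26456473-26456612, minus strand: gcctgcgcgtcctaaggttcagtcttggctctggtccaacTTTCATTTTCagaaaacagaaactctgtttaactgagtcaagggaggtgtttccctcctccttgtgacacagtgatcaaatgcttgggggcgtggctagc
Isg15, chr4:156200839-156200978, minus strand: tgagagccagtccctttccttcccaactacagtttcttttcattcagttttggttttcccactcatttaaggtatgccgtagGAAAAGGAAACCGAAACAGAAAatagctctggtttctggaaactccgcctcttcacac
The matches began 104 and 85 bases before the start in Ifit1, 156 and 122 in Ifit3, 120 in Rsad2, and 78, 72 and 66 in Isg15, where they overlap. The windows of Ifit2 and Cmpk2 do not hold these letters. A match is a string of letters, and binding was not measured here.

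The files held 132796517 UMIs in the flowthrough and 129921053 in the eluate, with a median of 12246.5 and 6079 UMIs per barcode. The interferon-high cells of the flowthrough had a median of 11145 UMIs and those of the eluate 8431, against 14212.5 and 11424 in the other phagocytes. The libraries shared 85 barcode sequences; 5 interferon-high cells carried one, and none was interferon-high in both. Levels are given as CPM, the UMIs of a gene per 1000000 UMIs summed over the cells of a group. With 1 library per fraction there was no test; the 95% intervals are exact Poisson intervals for levels and ratios and exact Clopper-Pearson intervals for shares, and they cover counting error only.

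The score formed a continuous range, not a separate class of cells. No UMI of the 5 genes was counted in 48.7% of the phagocytes, the highest score was 530 per 10000, and the threshold fell at 14.09. The lowest cell inside had a score of 14.0957 and the highest outside 14.0899; 72 interferon-high cells and 104 other phagocytes lay within 10% of the threshold. In the flowthrough the score of interferon-high cells had a median of 27.0 and a highest value of 423, in the eluate 25.6 and 530.

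**Figure D1:**
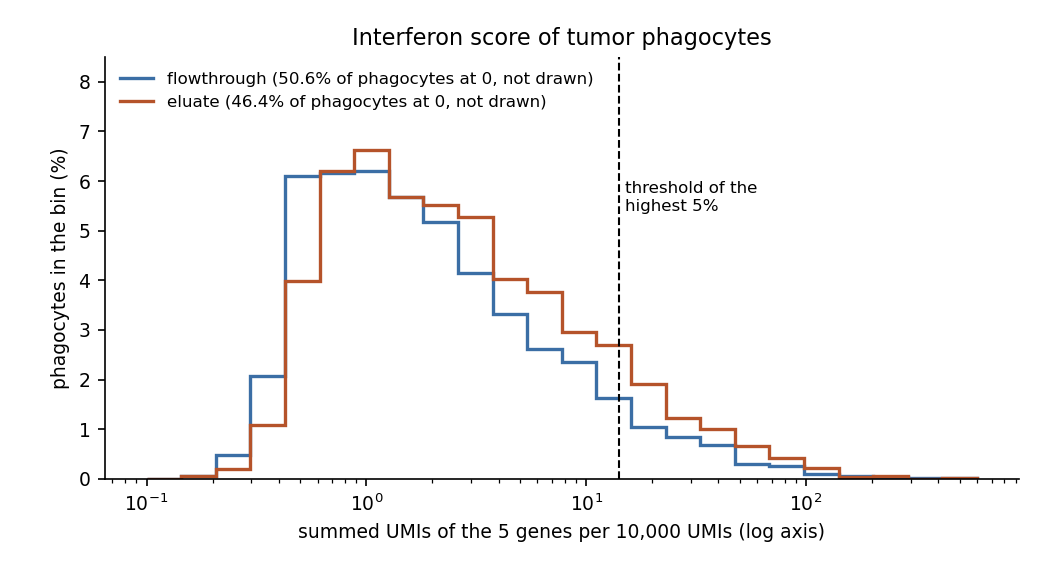
Share of phagocytes (%, vertical axis) by interferon score, the summed UMIs of the 5 genes per 10,000 (horizontal log axis), in the flowthrough (blue) and the eluate (brown); the dashed line is the threshold at 14.09. Neither library shows a gap at the threshold, and the eluate lies above the flowthrough in the bins around it; the bins farthest right hold few cells.

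Interferon-high cells made up 3.85% of flowthrough phagocytes (95% interval 3.45 to 4.29) and 6.35% of eluate phagocytes (5.79 to 6.94), a ratio of 1.65 (1.42 to 1.91). The share was lower in deeper cells of both libraries. It was 5.47%, 3.73% and 2.36% in the shallowest, middle and deepest of 3 equal groups of flowthrough phagocytes by UMIs, and 9.71%, 5.67% and 3.66% in those of the eluate. Among cells matched for depth the ratio was 1.92 (1.35 to 2.78) at 3000 to 6000 UMIs, 1.39 (1.104 to 1.75) at 6000 to 12000, 1.30 (1.005 to 1.68) at 12000 to 24000 and 1.70 (0.70 to 4.03) above that. With the score computed without Rsad2 the ratio was 1.23, and with 3 or more of the genes required it was 1.37.

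The 5 score genes did not contribute alike, and the chosen cells differed in how many of them were detected, a count that the rule and depth both touch. Rsad2 supplied 58.5% of the score's UMIs in interferon-high cells of the flowthrough and 66.2% in those of the eluate. At least 3 of the 5 genes were detected in 264 of 319 flowthrough cells (82.8%, interval 78.2 to 86.7) and in 307 of 447 eluate cells (68.7%, interval 64.2 to 73.0). A single gene was detected in 24 flowthrough cells (7.52%) and 75 eluate cells (16.8%), and in all 99 cells it was Rsad2. The median depth of these cells was 7426 and 7515 UMIs, against 12178 and 8991 in the cells with 3 or more of the genes.

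The eluate cells with Rsad2 alone lacked most of the response. Isg15, which encodes the ubiquitin-like tag, stood at 129.7 CPM (103 to 161) in them, at 268 in eluate cells with 2 of the genes, at 1005 in those with 3 or more, and at 123 in the other phagocytes. Of 105 measured genes on the 9 interferon lists described below, 3 were at least 2-fold higher in the 75 cells than in the other eluate phagocytes, where 2.55% of all 7560 genes were; in the eluate cells with 3 or more of the genes it was 61 of 105, and 2.14% of all genes. The same cells had 4500.3 CPM of Hmox1, the heme-degrading enzyme heme oxygenase 1, and 2068 of Mmp12, macrophage elastase, against 1545 and 633 in the other eluate phagocytes. In the 24 flowthrough cells with Rsad2 alone Isg15 was at 276 CPM (209 to 357), against 978 in flowthrough cells with 3 or more of the genes and 116 in the other phagocytes. Of the 105 genes 23 were at least 2-fold higher in them, where 6.03% of all genes were. Their Hmox1 was the highest of the flowthrough groups, at 3339.9 CPM against 1356 with 2 of the genes, 674 with 3 or more and 370.0 in the others. Some interferon genes were higher in the 75 eluate cells. Slfn5 stood at 191 CPM (158 to 228) against 94.2 in the other eluate phagocytes, and Oasl1 at 85.9 (64.7 to 112) against 45.9. Rtp4 was near level, at 57.8 against 54.7, and Irf7 was lower, at 119 against 142. The median log2 ratio over the 105 genes was 0.22. For these 75 cells the name interferon-high describes the score and few of the listed genes.

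**Figure D2:**
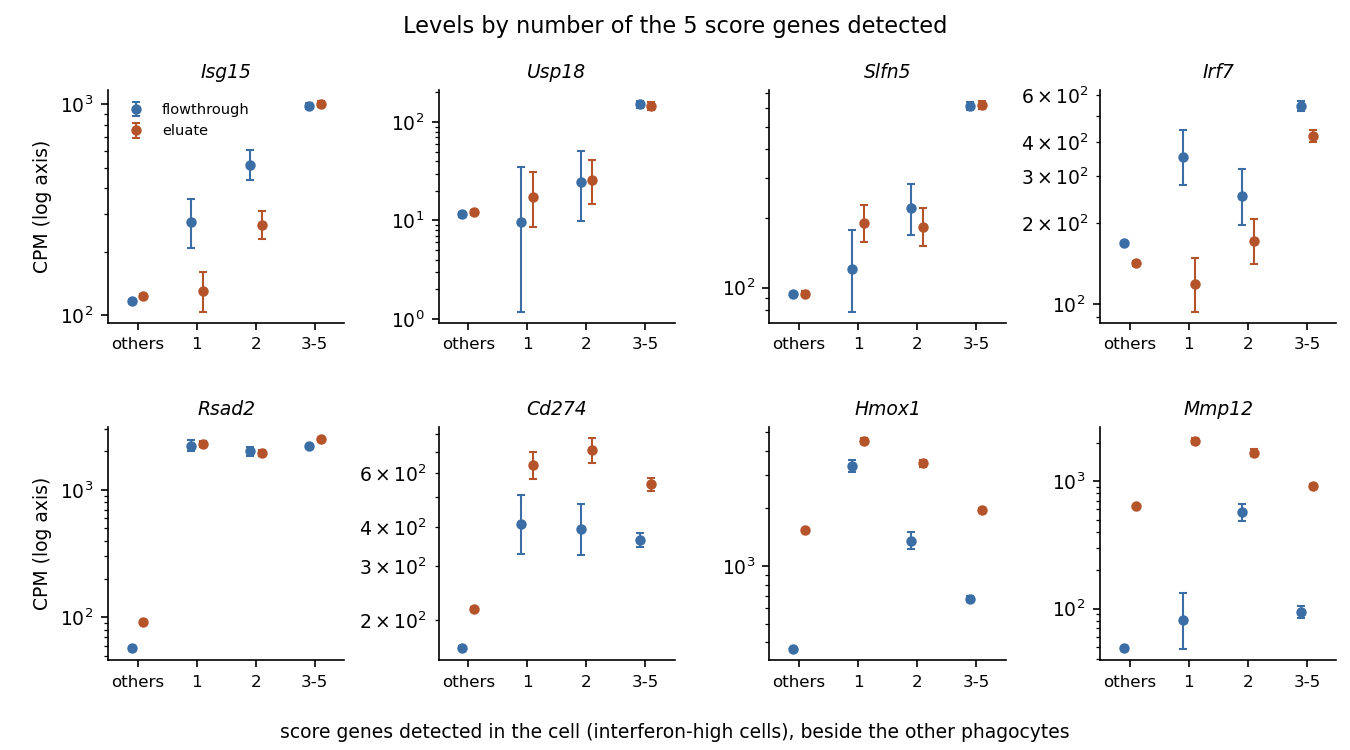
CPM (log axes) of 8 genes in the other phagocytes and in interferon-high cells with 1, 2 or 3 to 5 of the score genes detected, for the flowthrough (blue) and the eluate (brown); bars are exact 95% Poisson intervals. Isg15 in eluate cells with Rsad2 alone (129.7 CPM) lies near the level of the other phagocytes (123 CPM); Rsad2 is a score gene, so its level in these cells is set by the choice of cells.

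Each score gene was also read in cells chosen without it. The 5 genes come from the same rule and the chosen cells largely overlap, so the values describe and do not test. With cells chosen by the other 4 genes, Ifit1 stood at 404 CPM in the chosen flowthrough cells and at 12.2 in the remaining phagocytes, 33.0-fold higher; in the eluate the values were 299.97 and 13.3, 22.5-fold. Ifit2 was 23.8-fold and 15.6-fold higher, Ifit3 21.5-fold and 16.1-fold, and Cmpk2 32.5-fold and 23.9-fold. Rsad2 was 23.2-fold higher in the flowthrough (1552 against 66.9 CPM) and 14.1-fold in the eluate (1816 against 129). Leaving out Rsad2 kept 75.9% of the flowthrough cells and 62.2% of the eluate cells; leaving out any one of the other 4 kept at least 91.2%. The fold was smaller in the eluate for each of the 5 genes.

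The wider interferon program was higher in interferon-high cells of both libraries. The contrast with the other phagocytes shares its cells with the rule, so the values describe and do not test. Of 7560 genes at 10 CPM or more over all phagocytes, the 5 score genes apart, 171 (2.26%) were at least 2-fold higher in the flowthrough and 149 (1.97%) in the eluate, 123 (1.63%) of them in both. At least 2-fold lower were 25 genes (0.331%) in the flowthrough, 83 (1.1%) in the eluate and 14 (0.185%) in both. The level filter counts the interferon-high cells too, so genes near 10 CPM can pass it through them. Over the 9 interferon lists, which hold 116 genes of the files, 105 passed the level filter; 62 were at least 2-fold higher in the flowthrough, 58 in the eluate and 57 in both. Their median log2 ratio was 1.23 in the flowthrough and 1.08 in the eluate, against -0.08 in both over all genes.

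Of 20 measured antiviral effectors, 14 were at least 2-fold higher in both libraries and 0 were at least 2-fold lower. Isg15 stood at 909 CPM in interferon-high cells and 116 in the other phagocytes of the flowthrough, and at 775 and 123 in the eluate. Oasl1, a 2′-5′ oligoadenylate synthetase-like protein, stood at 391 against 48.8 CPM in the flowthrough and 272 against 45.9 in the eluate. Oas3, whose product activates RNase L, had log2 ratios of 2.62 and 2.23, and Helz2, a helicase and nuclear co-activator, 2.65 and 2.30. The flowthrough ratio was the larger for these 4 genes. Bst2, a tether that holds virions at the cell surface, was already at 478 CPM in the other flowthrough phagocytes and reached 694 in interferon-high cells, a log2 ratio of 0.54, with 0.44 in the eluate.

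Among nucleic acid sensors, 5 of 14 were at least 2-fold higher in both libraries. Ifih1, the double-stranded RNA sensor MDA5, stood at 238 against 46.4 CPM in the flowthrough and 192 against 46.4 in the eluate. Ddx58, the RNA sensor RIG-I, had log2 ratios of 2.47 and 1.96, Dhx58, their relative LGP2, 1.63 and 1.28, and Zbp1, a sensor of Z-form nucleic acid, 1.28 and 1.02. Tlr3, the endosomal double-stranded RNA receptor, was at 47.8 against 15.2 CPM in the flowthrough and 33.4 against 13.8 in the eluate. Among the adaptors Myd88, which serves most Toll-like receptors, had log2 ratios of 0.65 and 0.41. Mavs, downstream of RIG-I and MDA5, had log2 ratios of -0.03 and -0.08, and Ticam1, downstream of Tlr3, -0.06 and 0.07. The PYHIN genes, a family of DNA-binding proteins on chromosome 1, were higher as a block, with 9 of 10 at least 2-fold higher in both libraries. Ifi206 had log2 ratios of 2.93 and 2.77, Ifi205 2.86 and 2.53, Ifi209 2.66 and 2.26 and Ifi213 2.62 and 2.24; the exception was Aim2, the inflammasome DNA sensor, at 0.44 and 0.38. Near-identical members of this family, of the Ifit family and of the Schlafen family can share reads, so the values of single members are uncertain.

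The interferon alpha and beta receptor chains were near level, and 2 of 7 brakes and 2 of 11 transcription factors were at least 2-fold higher in both libraries. Ifnar1 stood at 111 CPM in interferon-high cells and 118 in the other phagocytes of the flowthrough, and at 86.9 and 93.2 in the eluate; Ifnar2 was at 180 against 182 and 178 against 175. The log2 ratios were -0.09 and -0.10 for Ifnar1 and -0.02 and 0.02 for Ifnar2. The interferon gamma receptor chain Ifngr1 was lower in interferon-high cells, at 160 against 235 CPM and 139 against 209 (log2 -0.55 and -0.58), and Ifngr2 had log2 ratios of -0.19 and -0.20. Usp18, which displaces JAK1 from IFNAR2 and removes ISG15, had the highest ratio of the 105 listed genes above the level filter: 136 CPM (125 to 148) against 11.5 in the flowthrough and 111 (102 to 121) against 12.1 in the eluate. Trim30a had log2 ratios of 1.78 and 1.55, and Socs1, which inhibits the Janus kinases, 1.20 and 0.86. The other brakes were nearer level: Socs3 had 0.35 and 0.34, Ptpn2 0.18 and 0.25, Pias1 0.12 and 0.11, and Ptpn6 0.17 and -0.17. Of the transcription factors, Stat2 was at 177 against 55.4 CPM and 144 against 51.5, and Irf7, the factor that amplifies interferon production, at 517 against 168 and 344 against 142. Irf3, which is activated by phosphorylation and not by induction, had log2 ratios of 0.03 and -0.20.

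The enzymes of ISG15 and ubiquitin conjugation and the Schlafen genes followed. Herc6, the ISG15 ligase of the mouse, stood at 146 against 25.2 CPM in the flowthrough and 129 against 26.1 in the eluate, and 10 of 14 genes on its list were at least 2-fold higher in both. Parp14, an ADP-ribosyltransferase, had log2 ratios of 2.11 and 1.85, Trim30d 2.20 and 1.82 and Parp10 1.76 and 1.65. Of the Schlafen genes, 5 of 6 were at least 2-fold higher in both libraries. Slfn5 stood at 561 against 93.3 CPM and 498 against 94.2, and Slfn4 at 68.2 against 10.6 and 73.2 against 9.94. Outside all lists, the genes with the largest ratios held in both libraries were Ddx60 (log2 2.59 and 2.15), Phf11d (2.45 and 2.06), Nt5c3 (2.43 and 1.98), Daxx (2.11 and 1.82), Pml (1.78 and 1.75), Phf11b (2.07 and 1.75), Znfx1 (2.12 and 1.72), Tor3a (1.96 and 1.71), Samd9l (2.03 and 1.66) and Ifi47 (1.71 and 1.63). Daxx and Pml meet in nuclear bodies that interferon is known to enlarge, and Ddx60 and Znfx1 are helicases of antiviral defence.

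**Figure D3:**
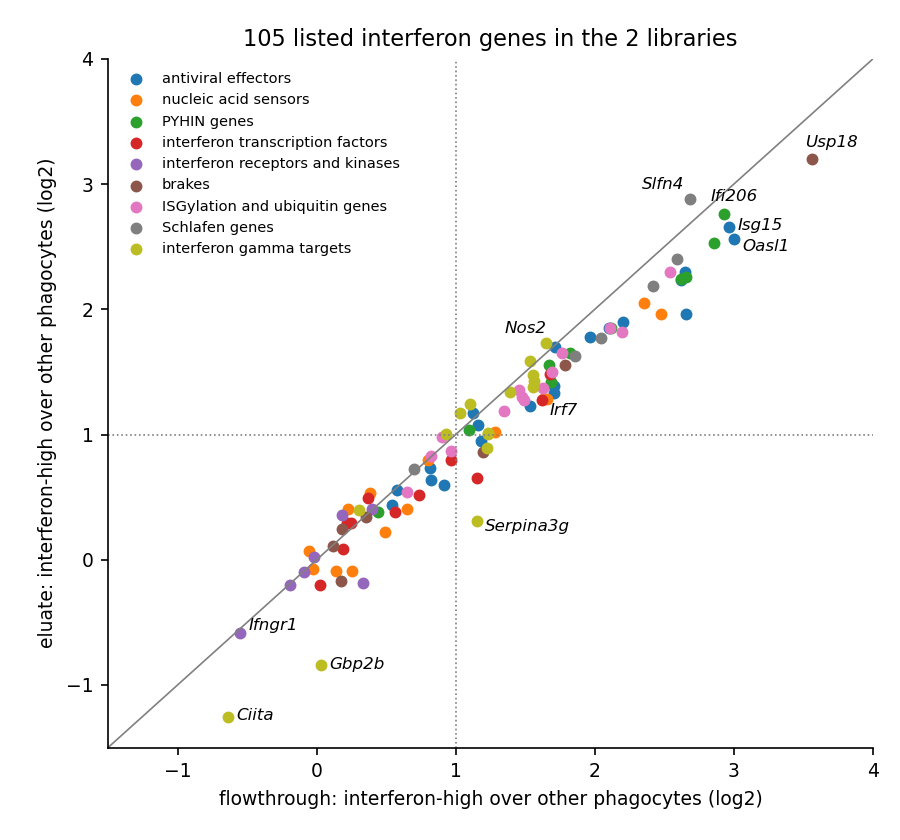
Log2 ratio of interferon-high over other phagocytes for the 105 listed interferon genes, flowthrough on the horizontal and eluate on the vertical axis, coloured by list; dotted lines mark 2-fold and the solid line equal ratios. Usp18 lies farthest out (3.56 and 3.20), Ifnar1 and Ifnar2 near 0, and 84 of the 105 genes have the larger ratio in the flowthrough.

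Targets that interferon gamma is best known for did not all go one way. Of the 16 measured genes on the list, most of them guanylate-binding proteins and p47 GTPases, 10 were at least 2-fold higher in both libraries. Gbp5 stood at 168 against 58.0 CPM in the flowthrough and 173 against 57.7 in the eluate, Igtp had log2 ratios of 1.57 and 1.43 and Tgtp2 1.55 and 1.47. Nos2, the inducible nitric oxide synthase, was at 125 against 39.7 and 223 against 67.2 CPM. Its level did not follow the number of score genes detected. It was 101 and 177 CPM in cells with 3 or more, 372 and 340 with 2, and 193 and 339 with Rsad2 alone. Gbp2b was level in the flowthrough (70.7 against 69.2 CPM) and lower in the eluate (30.3 against 54.4), and Serpina3g was higher in the flowthrough (212 against 95.3) and near level in the eluate (99.4 against 80.4). Of the 766 cells, 59 (7.7%) were also in the highest 5% by Gbp2b and Serpina3g. Ciita, the master regulator of MHC class II that interferon gamma induces, was lower in both (log2 -0.64 and -1.26).

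Chemokine genes differed by ligand. Cxcl10, which attracts T cells through CXCR3, stood at 1224 CPM against 213 in the flowthrough and 972 against 215 in the eluate. Cxcl9, its relative induced by interferon gamma, was at 1423 against 1477 and 879 against 1180, and Cxcl16 at 744 against 826 and 566 against 695. Of this group of 3, Cxcl10 was the one at least 2-fold higher. Ccl4 had log2 ratios of 2.09 and 1.91, Ccl12 1.47 and 1.29, Ccl3 1.62 and 1.22 and Ccl2 1.30 and 1.04; all 4 attract monocytes or lymphocytes. Of 9 measured cytokine genes, Il15, which sustains NK and memory T cells, stood at 49.7 against 12.3 CPM and 50.3 against 13.6, and Cd274, the checkpoint ligand PD-L1, at 369 against 163 and 585 against 218. Il1b, whose production type I interferon is known to restrain, had log2 ratios of 0.40 and 0.32. Outside the lists, Acod1, the itaconate-producing enzyme (log2 1.54 and 2.01), Inhba, the activin A subunit (1.62 and 1.91), AW011738 (2.08 and 1.49), Tpst1 (1.37 and 1.41) and Gbp6 (1.36 and 1.44) were also higher in both. AW011738 passed the level filter only because interferon-high cells count towards it. In the other phagocytes it stood at 9.71 and 8.58 CPM. In eluate cells with Rsad2 alone, Cd274 stood at 634 CPM, Inhba at 219, Acod1 at 209 and Ccl4 at 540. Eluate cells with 3 or more score genes had 551, 175, 241 and 704. In the flowthrough the values were 411, 58.0, 67.7 and 164 with Rsad2 alone, and 364, 70.9, 144 and 641 with 3 or more. Of the 272 Inhba UMIs in interferon-high flowthrough cells, 52.6% came from 4 cells.

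Transcripts of the ligand were rare and sat in few cells. Ifnb1, interferon beta, gave 36 UMIs in 6 of 319 interferon-high flowthrough cells, 22 of them in 1 cell and 7 in another, against 2 UMIs in 2 of 7960 other flowthrough phagocytes. The cell with 22 Ifnb1 UMIs had a score of 29.2 and 5825 UMIs in all; the cell with 7 had a score of 58.8 and 753 UMIs of Ccl5. In the eluate 1 Ifnb1 UMI fell in 1 of 447 interferon-high cells and 1 in 1 of 6593 others. Barcodes outside the phagocytes held 1 Ifnb1 UMI in the flowthrough and 3 in the eluate, these 3 in 1 barcode. Ifng gave 1 UMI in interferon-high flowthrough cells, and Ifnk, interferon kappa, 1 UMI in those of the eluate. In the other flowthrough phagocytes each of these 2 genes gave 5 UMIs, and in those of the eluate Ifng gave 3 and Ifnk 1. Outside the phagocytes Ifng gave 102 UMIs in 4 flowthrough barcodes and 127 in 33 eluate barcodes. The listed Ifna genes and Ifnab gave 0 UMIs in interferon-high cells, which allows a share of cells with a UMI of up to 0.94% in the flowthrough and 0.671% in the eluate. The low counts fix neither the share of producing cells nor which cells secrete the protein.

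MHC class II was lower and class I slightly higher with the score. H2-Aa stood at 2799 against 3621 CPM in the flowthrough and 1303 against 2488 in the eluate, and the median log2 ratio of 7 class II genes was -0.37 and -0.93. The 17 class I, peptide loading and immunoproteasome genes had medians of 0.40 and 0.34, with B2m at 0.22 and 0.28 and H2-T22 at 0.96 and 0.83. Cells in the highest 5% by class II UMIs made up 0.91% of interferon-high cells (7 of 766, interval 0.37 to 1.87), where 5% of all phagocytes were. Cell cycle genes were lower too, with medians of -0.80 and -1.32 over 8 genes, and 10 interferon-high cells (1.31%) were in the highest 5% by them. The genes outside the lists with the lowest ratios held in both libraries were Mt3 (log2 -3.30 and -1.39), a metallothionein, then Cenpf (-1.34 and -1.22), Ccnb1 (-1.15 and -1.33), Dlgap5 (-1.12 and -1.32), Hist1h3c (-1.10 and -1.19) and Kif23 (-1.13 and -1.04), which act in chromosome replication or division, with Tbc1d16 (-1.12 and -1.20) and Klrb1b (-1.44 and -1.11). Mt3 rests on 1 UMI in interferon-high flowthrough cells (interval of the log2 ratio -9.19 to -1.40), and 76.3% of the 435 UMIs in the other flowthrough phagocytes and 45.2% of the 2159 in those of the eluate came from 4 cells.

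Monocyte genes overlapped with the response. Ly6c2, the marker of classical monocytes, stood at 172 CPM against 44.7 in the flowthrough and 229 against 60.3 in the eluate, and Plac8 at 404.5 against 111 and 504 against 128. Ccr2, the receptor that brings monocytes into tissue, was level in the flowthrough (164 against 153) and lower in the eluate (80.8 against 105). Ly6c2, Plac8 and Ms4a4c are themselves known to be inducible by interferon. Of the 766 cells, 137 (17.9%, interval 15.2 to 20.8) were in the highest 5% by the 7 monocyte genes, 17.9% in each library. Over both libraries overlaps were 10.7% with Mmp12 and Cd36, which was 1.88% in the flowthrough and 17.0% in the eluate, 10.6% with immediate early genes, 10.4% with the resident-like macrophage genes (6.90% and 13.0%), 7.57% with Retnla and Cbr2 (11.6% and 4.70%), 6.53% with Arg1 and Mmp9, 5.87% with heat shock genes and 3.52% with Fcrls and Cx3cr1. By construction 5% of all phagocytes of both libraries are in each of these groups, but the share differs by library. Of all phagocytes in the flowthrough and the eluate, 0.65% and 10.1% were in the highest 5% by Mmp12 and Cd36. For the resident-like genes it was 3.26% and 7.05%, for Retnla and Cbr2 6.31% and 3.47%, and for the monocyte genes 4.52% and 5.57%. Over 11 mononuclear phagocyte genes the median log2 ratio was -0.13 and -0.16.

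Markers of lymphocytes and dendritic cells were near 0 in interferon-high cells. The summed level of 7 T cell genes was 1.72 CPM in the flowthrough and 3.14 in the eluate, with 4 and 3 of the genes at 0, against 4.65 and 3.28 in the other phagocytes. That of 5 NK genes was 1.23 and 2.24, with 3 genes and 1 gene at 0, of 5 B cell genes 4.18 and 5.16, with 4 genes and 1 gene at 0, and of 7 dendritic cell genes 4.43 and 9.87. Of 5 plasmacytoid dendritic cell genes, 2 were at 0 in both libraries, and the summed 230.4 and 196 CPM, against 184 and 175 in the others, came with a median log2 ratio of 0.33 and 0.16 for the 1 gene above 10 CPM. Neutrophil genes stood apart in the eluate, at 189 CPM against 64.9, and 98.1% of the 263 S100a9 UMIs there came from 4 cells. Mesenchymal genes summed to 33.0 and 124 CPM, against 23.5 and 105 in the others, and erythroid genes to 0.25 and 9.43, against 0.083 and 1.74. The part of the neutrophil, mesenchymal and erythroid genes in the results was not tested.

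Isg15, Usp18, Ifih1 and Irf7 were higher at each step of the score, below the threshold too; not every interferon gene was, since Ifi27l2a went from 1173 to 1073 CPM at the last flowthrough step and from 514 to 461 at the first eluate step. In the flowthrough Isg15 stood at 63.3 CPM in cells with no UMI of the 5 genes, at 76.8, 126, 198 and 385 in 4 bins of rising score below the threshold, and at 909 in interferon-high cells. In the eluate the values were 74.9, 82.4, 113, 180, 294 and 775. Usp18 went from 5.70 to 136 CPM in the flowthrough and from 6.69 to 111 in the eluate, and Ifih1 from 33.7 to 238 and from 33.7 to 192, each rising at every step. Irf7 was higher in the flowthrough in every bin, from 131 to 517 CPM against 117 to 344. Ifnar1 lay between 107 and 123 CPM in the flowthrough and between 82.0 and 99.9 in the eluate with no rise, and H2-Aa was lower at every step in both. With every cell thinned to 3000 UMIs, Isg15 still stood at 89.0 CPM with no UMI of the 5 genes and 914 above the threshold in the flowthrough, and at 97.7 and 883 in the eluate.

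**Figure D4:**
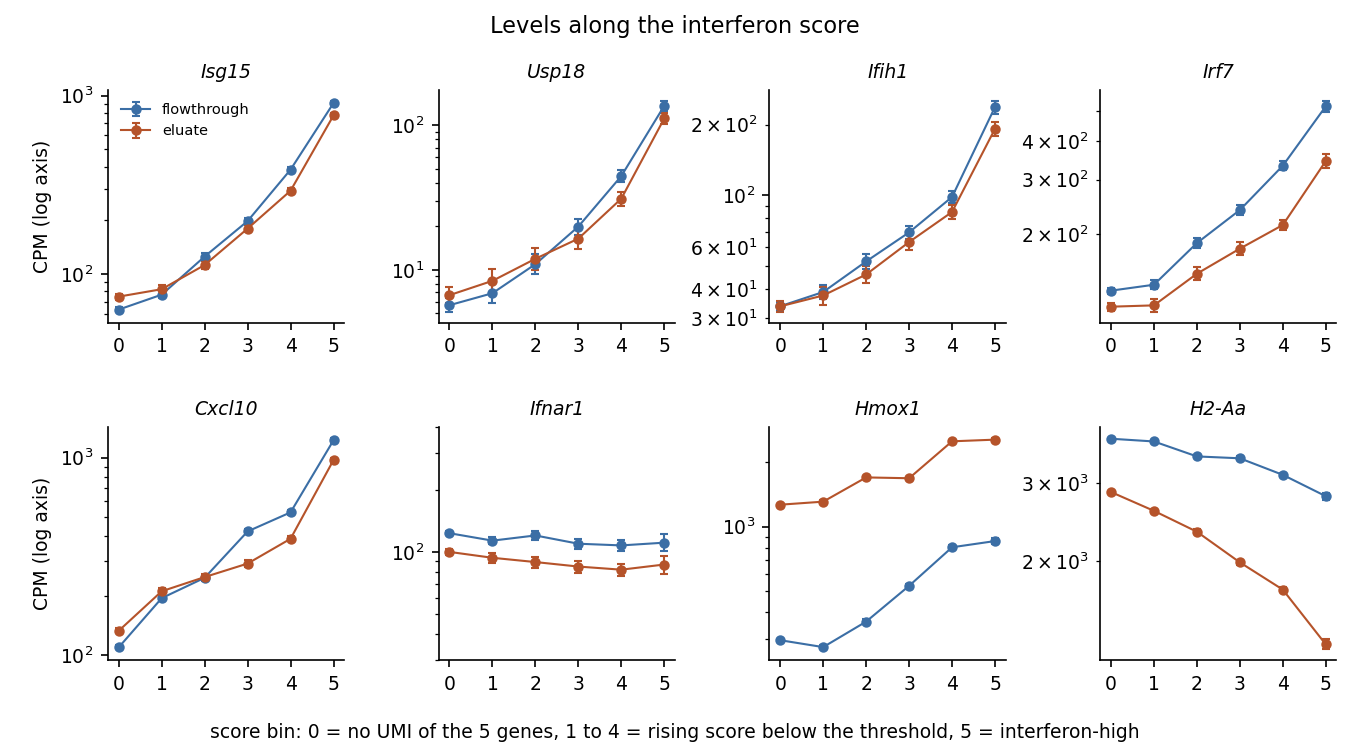
CPM (log axes) of 8 genes in 6 bins of the interferon score, from no UMI of the 5 genes (0) to interferon-high (5), in the flowthrough (blue) and the eluate (brown), with exact 95% Poisson intervals. Isg15, Usp18, Ifih1 and Irf7 rise towards the right in both libraries, Ifnar1 has no rise and H2-Aa is lower at every step.

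Slc40a1 (ferroportin, the iron exporter, chr1:45908068-45926523) stood at 135 CPM (125 to 146) in interferon-high cells of the eluate and at 7.39 (4.98 to 10.5) in those of the flowthrough, a log2 ratio of 4.17; in the other phagocytes the levels were 102 and 5.48, a log2 ratio of 4.21. The difference of the log2 ratios was -0.04 (-0.58 to 0.50, a normal approximation from the counts). The flowthrough level in interferon-high cells rests on 30 UMIs in 10 cells, 70% of them from 4 cells. The intervals treat UMIs as independent and leave out this spread between cells. Within interferon-high cells 108 of 7565 genes (1.43%) were at least 2-fold higher in the eluate and 63 (0.833%) at least 2-fold lower; in the other phagocytes these were 71 (0.939%) and 2 (0.0264%). The interferon-high cells hold fewer UMIs, 4062266 and 4455746 in all, than the other phagocytes, 119817815 and 82732646. The part of this depth in the counts of genes was not tested.

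Iron and heme genes differed between the fractions gene by gene: within interferon-high cells 11 of 18 had a log2 ratio of eluate over flowthrough above 0, with a median of 0.23 and a lowest value of -0.66. Hmox1 stood at 2541 CPM against 857 in interferon-high cells (log2 1.57) and at 1545 against 370 in the others (2.06). Cd163, the receptor for hemoglobin with haptoglobin, was at 112 against 25.1 CPM in interferon-high cells, Slc48a1, which carries heme out of lysosomes, at 238 against 83.9, and the ferritin chains Fth1 and Ftl1 had log2 ratios of 0.76 and 0.82. Transferrin receptor Tfrc was level (17.1 against 17.7 CPM). Of 18 iron and heme genes, 6 were at least 2-fold higher in the eluate within interferon-high cells, where 1.43% of all genes were. In the other phagocytes it was 4 of 18, where 0.939% of all genes were. There too 11 of 18 had a log2 ratio above 0, with a median of 0.29. All 11 genes of a list that an earlier analysis of these libraries had found higher in the eluate were at least 2-fold higher there in interferon-high cells too, which is no independent evidence because the cells are part of the same libraries. Among genes with at least 50 UMIs in the interferon-high cells of both libraries together, the largest ratios were those of Mmp8 (67.1 against 1.23 CPM), Slc40a1, Igfbp7 (33.2 against 2.22), Fabp4 (48.5 against 4.18), Mmp12 (1186 against 127), Cxcl3 (190 against 20.4), Gpnmb (116 against 13.1), S100a8 (81.5 against 10.8), Marco (111 against 15.02) and Slpi (210 against 31.8). Igfbp7 and Fabp4 were abundant in eluate barcodes outside the phagocytes, with 106422 and 66417 UMIs. With 10% free RNA subtracted their log2 ratios of 3.83 and 3.50 became -0.13 and -4.77. The subtracted profile was that of all barcodes of the library and the 10% was a chosen setting. Free RNA itself was not measured, and its part in these 2 ratios was not tested.

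The genes lowest in the eluate relative to the flowthrough within interferon-high cells rested partly on few cells or few UMIs. Retnla, a secreted marker of alternative activation, stood at 8.98 against 61.8 CPM, and 86.1% of its flowthrough UMIs came from 4 cells; its direction was reversed under several alternatives. Fcrls was at 56.3 against 183 CPM (log2 -1.70), Gatm, an enzyme of creatine synthesis, at 161 against 443 (-1.46), and Ptgs1, cyclooxygenase 1, at 26.3 against 73.1 (-1.47). Col14a1 (-1.95), Rogdi (-1.74), Orc6 (-1.58), Gsg1 (-1.49) and Aurkb (-1.42) rested on 47 to 86 UMIs in the flowthrough and 18 to 28 in the eluate. Areg, the growth factor amphiregulin, was at 26.3 CPM in the flowthrough, from 14 cells, and 8.75 in the eluate, from 20 cells. MHC class II had a median log2 ratio of -1.03 in interferon-high cells and -0.47 in the others.

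Interferon genes were slightly lower in interferon-high cells of the eluate than of the flowthrough. The median log2 ratio of eluate over flowthrough over the 105 listed genes was -0.25 in interferon-high cells and -0.08 in the others, where the medians over all genes were -0.11 and -0.10. The difference between interferon-high and other phagocytes was below 0 for 84 of the 105 genes and for 53.8% of all 7565. Its median over the list was -0.19, and -0.04 when interferon-high cells were limited to those with 3 or more score genes; with Rsad2 left out of the score it was 0.03. In cells with 3 or more score genes Isg15 stood at 978 CPM in the flowthrough and 1005 in the eluate, Usp18 at 152 and 147 and Slfn5 at 614 and 621, while Irf7 was at 547 and 423.

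**Figure D5:**
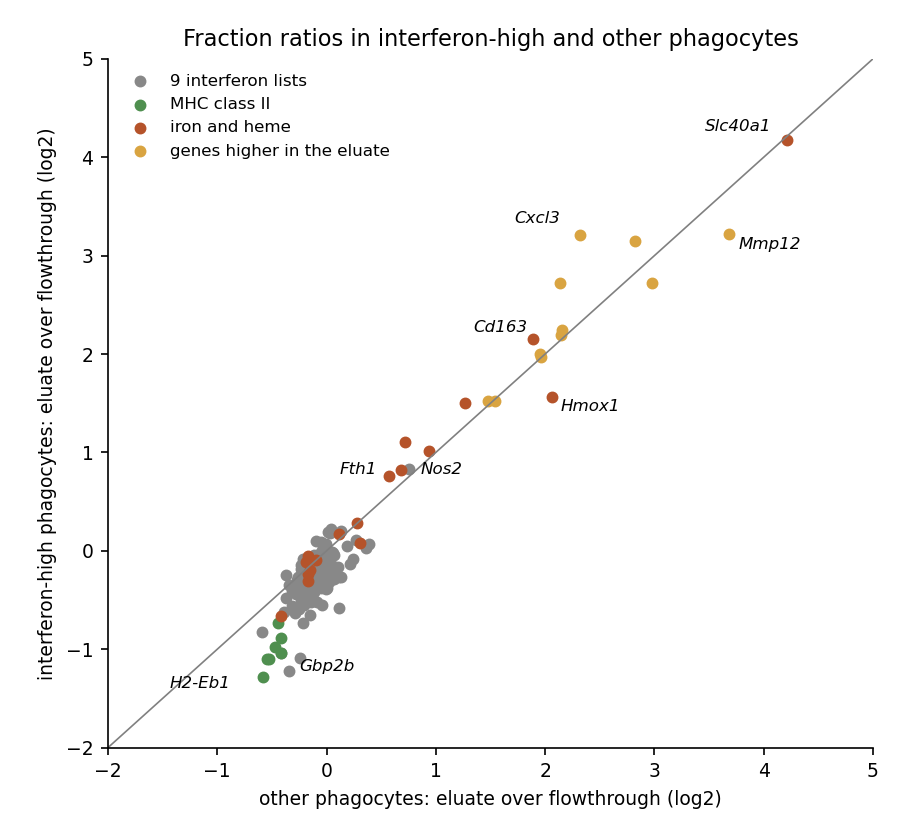
Log2 ratio of eluate over flowthrough in the other phagocytes (horizontal) and in interferon-high phagocytes (vertical) for the listed interferon genes (grey), MHC class II (green), iron and heme genes (red-brown) and genes found higher in the eluate by an earlier analysis of these libraries (yellow); the line marks equal ratios. Slc40a1 lies on the line at 4.21 and 4.17, and the class II genes lie below it.

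The promoter motif shown above was more frequent among the genes that were higher in interferon-high cells. Of the 105 listed genes, 83 matched a RefSeq promoter entry by symbol and 38 (45.8%) held the motif in at least 1 window, against 261 of 6115 matched genes (4.27%) over all genes measured. Among the 57 listed genes at least 2-fold higher in both libraries 27 of 45 matched genes (60.0%) held it, and among the other 48 listed genes 11 of 38 (28.9%). Of all 123 genes at least 2-fold higher in both libraries, 35 of 98 matched genes (35.7%) held it. These 35 include the 27 listed genes. The lists were picked as interferon genes and the contrast rests on cells chosen by such genes, so these shares describe and do not test. The windows of Cxcl10 and Ifih1 each held 1 match, and those of Irf7, Oasl1, Oasl2, Slfn4 and Ifnb1 did not hold these letters.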

How the data were processed

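Single cells of 1 iron-negative flowthrough and 1 iron-positive eluate were profiled with the single cell 3′ version 3 protocol of 10x Genomics, per the labels' protocols. The authors deposited raw UMI counts per gene and barcode as filtered matrices; the submitters' processing notes name Cell Ranger 3.1.0 and mm10, and the file headers name Cell Ranger 5.0.0. From these counts phagocytes and interferon-high cells were chosen, UMIs were summed per group, and log2 ratios were taken of (count + 0.5) per 1000000 UMIs (CPM), for genes at 10 CPM or more over all phagocytes (Python 3.11.15, NumPy 2.4.6, SciPy 1.17.1). The 2-fold call was tested on simulated data. No doublet caller was run. The marker limits and 2 alternatives stand in for it only in part, since 1 of the alternatives also removes many phagocytes, as given below. Members, gene lists and rules were chosen with earlier results of these data known. Named are up to 4 genes per interferon list by the smaller of both libraries' ratios, the interferon receptor chains, and the ligands detected in interferon-high cells. Also named are the 15 highest and 8 lowest genes outside the lists, the 10 highest and lowest between fractions with at least 50 UMIs, and the iron and heme list. Other listed genes (Bst2, Zbp1, Mavs, Ticam1, Aim2, Irf3, Gbp2b, Serpina3g, Ciita, chemokines, cytokines, MHC, monocyte and eluate genes) were named after their values were seen. Mx1, Mx2, Mnda and Cxcl11 were not analysed here. Depth limits single cells: an interferon-high cell held at least 5 score UMIs. Alternatives changed the threshold, filters, score form, score genes, level filter, pseudocount and free RNA.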

Additional observations from a re-analysis of the deposited data

Results flagged for a closer look

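Areg was higher in interferon-high than in other phagocytes of the flowthrough (log2 1.95) and lower in those of the eluate (log2 -0.72), opposite directions in the 2 libraries. Of its 107 UMIs in interferon-high flowthrough cells 78.5% came from 4 cells, and the difference was not tested. Psme1, an activator of the proteasome, had log2 ratios of 0.16 and -0.07, and Ptpn6, the phosphatase SHP-1, 0.17 and -0.17, also opposite and also not tested.

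Some eluate barcodes above a marker limit, counted whether or not they had the phagocyte genes, also lay above the threshold. In the eluate 6.41% of 608 barcodes above the Cdh5 limit, 5.45% of 220 above the Rgs5 limit and 3.57% of 448 above the Col1a1 limit lay above the threshold, against 6.35% of eluate phagocytes. In the flowthrough these were 0 of 19, 0 of 2 and 2 of 65 (3.08%), too few to compare. The median depths of these groups were 25398.5, 22341 and 26845 UMIs in the eluate and 23426, 49649.5 and 58815 in the flowthrough. Barcodes with several cell types' markers can hold more than 1 cell, and their part in these shares was not tested.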

How the results depend on the processing

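No paired analysis was possible because each fraction is 1 library. The share ratio of 1.65 was 1.0 with the highest 5% taken in each library on its own, which sets it by construction, 1.30 with the mean of log values, 1.23 without Rsad2 in the score and 1.37 with 3 or more score genes required. Requiring 3 or more score genes, and leaving out shared barcodes, were chosen after seeing the data. Genes at least 2-fold higher in interferon-high cells numbered 68 (flowthrough) and 56 (eluate) at 50 CPM and 6666 and 6375 with no level filter; listed genes higher in both numbered 29 at 50 CPM. Between fractions, the 108 genes higher in the eluate became 32 at 50 CPM, 2389 with no filter and 317 without barcodes holding 2 or more UMIs of listed genes of other cell types. That setting kept 22.6% and 34.2% of the cells. The plasmacytoid dendritic cell list alone reached 2 UMIs in 63.0% and 43.8% of interferon-high cells and in 62.5% and 51.1% of the other phagocytes. The setting thus removed many phagocytes and does not single out other cell types. The 63 lower genes became 128 at the top 2%, 19 at the top 10%, 40 after thinning, 14 with the mean of log values and also 14 without Rsad2, 337 without other-type barcodes, 35 after division by the median, 16 at 50 CPM, 1389 with no filter and 96 with 10% free RNA subtracted.

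The median difference of -0.19 over listed interferon genes was -0.052 at the top 2%, -0.076 with each library's own 5%, -0.00302 with the mean of log values, 0.028 without Rsad2 and -0.040 with 3 or more score genes. The monocyte overlap of 17.9% was 21.5% at the top 2%, 14.9% at the top 10%, 13.3% without other-type barcodes and 20.8% with 3 or more score genes; the class II overlap was 0% without other-type barcodes.

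Single genes that reversed were few. Retnla in the eluate, interferon-high over others, was 3.09 (log2) at the top 10%, 2.94 after thinning, 3.05 at 5000 UMIs and 3.05 with the mean of log values, 3.01 without Ifit3, 2.97 without Cmpk2 and 1.65 without other-type barcodes. Between fractions it was 0.999 after thinning, 1.42 at 5000 UMIs, 1.13 with the mean of log values, 1.31 without Ifit3, 1.32 without Cmpk2 and 5.16 without other-type barcodes; 1 other eluate phagocyte held 671 of its UMIs. Marco in the eluate was -0.23 without Rsad2. Without other-type barcodes Aurkb and Gbp2b between fractions were 0.58 and 0.051. With free RNA subtracted Fabp4 was -4.77 and Igfbp7 -0.13. The causes were not tested. The measured genes of all lists and the genes named outside them, 261 without the score genes, were followed through the alternatives. In the flowthrough 105 of the 261 were past 2-fold, a different set from the 105 listed interferon genes. All of their 2205 values kept their sign and 2116 stayed past 2-fold. In the eluate 113 of the 261 were past 2-fold, and 2365 and 2174 of their 2373 values did so. Between fractions 35 of 149 genes were past 2-fold, with 725 and 657 of 735 values. Counted by gene, fewer held in every alternative: 79 of the 105 in the flowthrough, 71 of the 113 in the eluate and 17 of the 35 between fractions. Depth limits the values of single genes: Ifnb1 and the genes with under 50 UMIs in a library rest on few molecules.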
